A study of Homo sapiens with 24 samples.

Results

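The 32 genes described here make cholesterol and fatty acids, control that synthesis, or move its products. They were taken by gene symbol, and a gene was measured where a probe set carried its symbol and no other. This held for 30 of the 32, each with 1 probe set, out of 17448 genes tested. FDFT1 (squalene synthase) was without such a probe set in the annotation used here, and HSD17B7 (a sterol ketone reductase) shares its probe set with HSD17B7P2, so neither was tested. By role, 7 measured members belong to the mevalonate pathway, 9 to the later sterol steps, 4 to the control of both pathways, 7 to fatty acid synthesis, and 3 to lipid transport or glyceride synthesis.

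The cells were SW1222, a human colorectal cancer line, on 24 Affymetrix arrays in 9 groups, and DPPA3 is a small protein best known from germ cells and the early embryo. In the induction experiment, DPPA3-OE cells and control-OE cells were both given doxycycline at 5 µg/ml, either over the last 5 days of a 3D culture in Matrigel or for 4 hours in 2D (3 arrays per group). In 3D, untreated cells with DPPA3 shRNA were set against cells with control shRNA (3 arrays each), and DPPA3 KO clone 66 and clone 75 against cells with a scrambled gRNA (2 arrays each). All cells were kept at 21% oxygen. No DPPA3-OE cells without doxycycline were analysed here, so a response to DPPA3 and a standing difference between the lines cannot be told apart, and each knockout line is a single clone, so the edit and the clone cannot be told apart either. The labels do not say that replicate arrays came from separate cultures, so the p-values speak of array-to-array spread, which may be technical.

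Cholesterol is built from acetyl-CoA through mevalonate, isoprenoid units, squalene and lanosterol, and fatty acids are built from the same acetyl-CoA through malonyl-CoA. The transcription factors encoded by SREBF2 and SREBF1 switch on most of these enzymes: when membrane sterol is low, SCAP escorts their precursors from the endoplasmic reticulum to the Golgi, where they are cut and released, and when sterol is high, INSIG1 holds the complex back. Oxysterols formed when sterol is plentiful activate the nuclear receptors LXR, which raise the cholesterol exporter ABCA1 and SREBF1.

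DPPA3 was measured at 3.77, 4.54 and 4.74 (log2 units throughout) in induced 3D cells, against 2.99, 2.59 and 2.97 in control 3D cells. In 2D it was at 4.73, 4.18 and 6.16 in induced cells, against 2.83, 3.27 and 3.47 in control cells. The arrays did not overlap in either setting, and DPPA3 passed the test in both, by 1.50 in 3D and 1.84 in 2D (limma, adjusted p = 0.00251 and 0.000475). In the loss-of-function lines it lay between 2.55 and 3.19, against 2.68 to 3.15 in their controls, a range in which this probe set gave no check of the labels. Across genes, r between arrays of a group was 0.987 to 0.994. The 12 colorectal epithelial markers averaged 8.46 to 9.10 per array, and the markers of fibroblasts, leukocytes, endothelium, adipocytes and hepatocytes averaged 2.65 to 3.29.

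Of the 30 members, 27 had a mean level above the median of all genes, and MVK, FADS1 and FADS2 lay below it. The spread of the 9 group means, highest minus lowest, ran from 0.14 for TM7SF2, a sterol reductase, to 1.41 for SCD, the desaturase that makes oleate. It was 1.23 for EBP, 1.22 for ABCA1, 1.04 for STARD4, 1.03 for HMGCS1 and 1.02 for ACAT2. Within groups the pooled SD of a member lay between 0.09 (SQLE) and 0.23 (EBP). Induced 2D cells most often had the highest mean, for 11 members, and control 2D cells most often the lowest, for 9. How often these groups were highest or lowest over all genes was not counted, so the counts are not shown to be particular to the members. The 11 were all enzymes (HMGCS1, MVK, FDPS, SQLE, CYP51A1, DHCR7, SC5D, NSDHL, ACLY, ACAT2 and FADS1). The 9 included 3 of the 4 regulators (SREBF1, SREBF2 and SCAP), besides LSS, SCD and ACACA. They also included all 3 genes of lipid transport or glyceride synthesis (STARD4, ABCA1 and LPIN1).

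**Figure D1:**
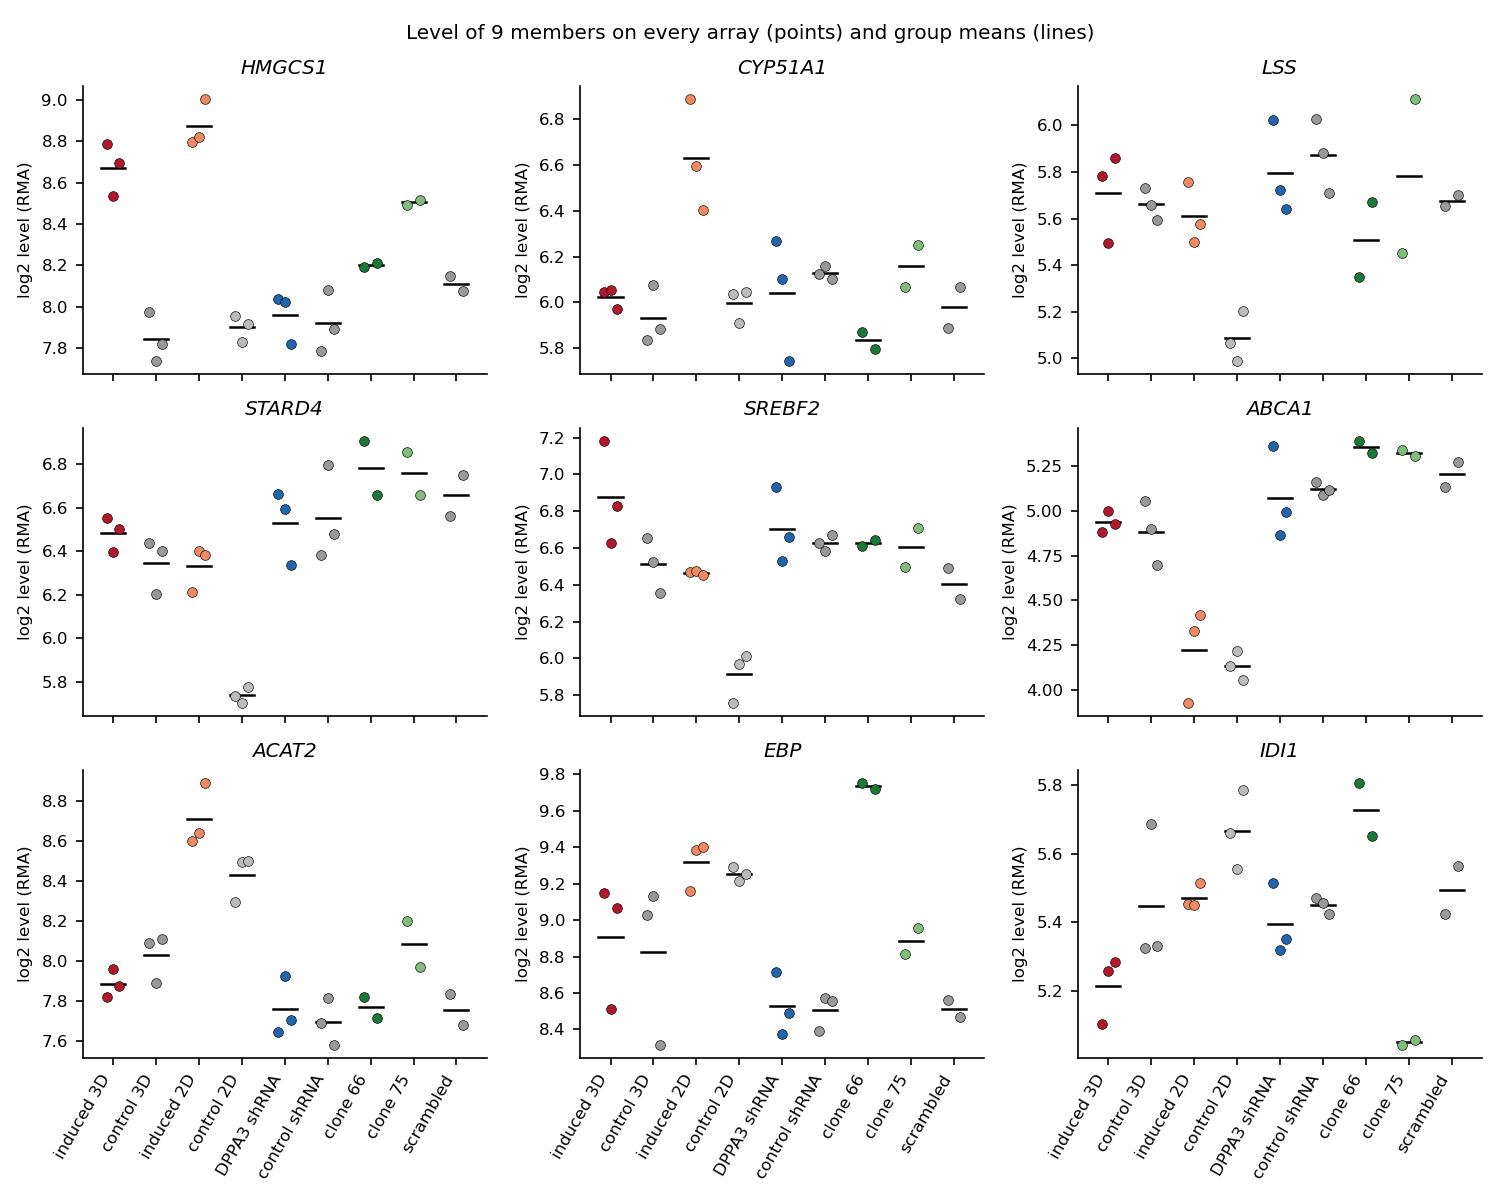
Log2 level (vertical axis, RMA) of 9 members on each of the 24 arrays (points) and the group means (lines), in 9 groups from induced 3D to the scrambled guide. HMGCS1 was higher in both induced groups than in their controls, LSS, STARD4 and SREBF2 were lowest in control 2D cells, ABCA1 was low in both 2D groups, and EBP and IDI1 differed between clones 66 and 75.

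In 2D, 4 hours after doxycycline was given to both lines, 5 members were higher in the induced line than in the control line and 0 were lower, where 1.87% of all genes were called higher and 1.26% lower. The 5 were HMGCS1, CYP51A1, STARD4, SREBF2 and LSS: an early mevalonate enzyme, 2 enzymes of the sterol ring, a sterol carrier and the transcription factor of the pathway. The fold change was above 0 for 25 of 30 members, with a median of 0.15, beside 0.004 over all genes, and 12 members had an unadjusted p under 0.05 (2376 of all genes did). The induced arrays lay above every control array for 14 members and below for 1, where 9.61% and 7.09% of all genes were so separated. Of the 12 epithelial markers, 6 were above 0 and 6 below, with a median of 0.01, and 2 were called lower, KRT20 at -0.54 and CDH17 at -0.32. The list averaged 8.57 to 8.63 in induced 2D cells, against 8.65 to 8.67 in control 2D cells. Their part in the members' values was not tested, and in such bulk arrays fewer cells of a kind and less RNA per cell cannot be told apart.

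HMGCS1, the cytosolic synthase that makes HMG-CoA, was at 8.80, 8.82 and 9.00 in induced 2D cells, against 7.96, 7.83 and 7.92 in control 2D cells. The groups were far apart compared with their internal spread. The difference was 0.97 ± 0.10 (SE), or 1.96-fold, with an adjusted p of 1.01e-06 by limma. CYP51A1, which demethylates lanosterol, was at 6.89, 6.60 and 6.41 in induced cells, against 6.04, 5.91 and 6.04 in control cells. Every induced array lay above the controls, though the induced arrays were themselves spread widely, and the difference was 0.63 ± 0.12 (SE; limma, adjusted p = 0.00251).

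STARD4, a soluble carrier that moves cholesterol between membranes, was at 6.21, 6.40 and 6.38 in induced 2D cells, against 5.73, 5.70 and 5.78 in control 2D cells. SREBF2 was at 6.47, 6.48 and 6.45 in induced cells, against 5.76, 5.97 and 6.01 in control cells. For both genes the groups were separate, and it was the control 2D arrays that stood below all other 21 arrays of the series. STARD4 rose by 0.60 ± 0.12 and SREBF2 by 0.55 ± 0.12 (SE; limma, adjusted p = 0.00264 and 0.00975). LSS, which closes squalene epoxide into lanosterol, was at 5.76, 5.50 and 5.57 in induced cells, against 5.07, 4.99 and 5.20 in control cells. Its difference of 0.52 ± 0.14 (SE) had an adjusted p of 0.0418 by limma, and it passed neither in the 6 fits that left out an array of the comparison (adjusted p up to 0.175) nor after a new quantile normalisation (0.105). SREBF2 did not pass without replicate 1 of the control line (adjusted p = 0.0746).

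The other mevalonate and sterol members in 2D mostly had values above 0 without passing the test. MVD was at 0.44, SC5D at 0.42, DHCR7 at 0.39, ACAT2 at 0.28 and NSDHL at 0.26, with adjusted p from 0.0797 to 0.246 by limma. SC5D passed without replicate 2 of the induced line (adjusted p = 0.0299), but in only 1 of the 6 fits that left out an array (adjusted p up to 0.502). SQLE, squalene epoxidase, was at 7.25, 7.24 and 7.32 in induced 2D cells, against 7.14, 7.27 and 7.15 in control 2D cells, and these overlap. IDI1 was the single member whose induced arrays all lay below the controls, with a fold change of -0.19 (adjusted p = 0.427). Averaged over the 16 mevalonate and sterol genes, the arrays were at 6.49, 6.50 and 6.56 in induced 2D cells, against 6.24, 6.27 and 6.27 in control 2D cells. All other arrays of the series lay between 6.11 and 6.39 on this average.

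**Figure D2:**
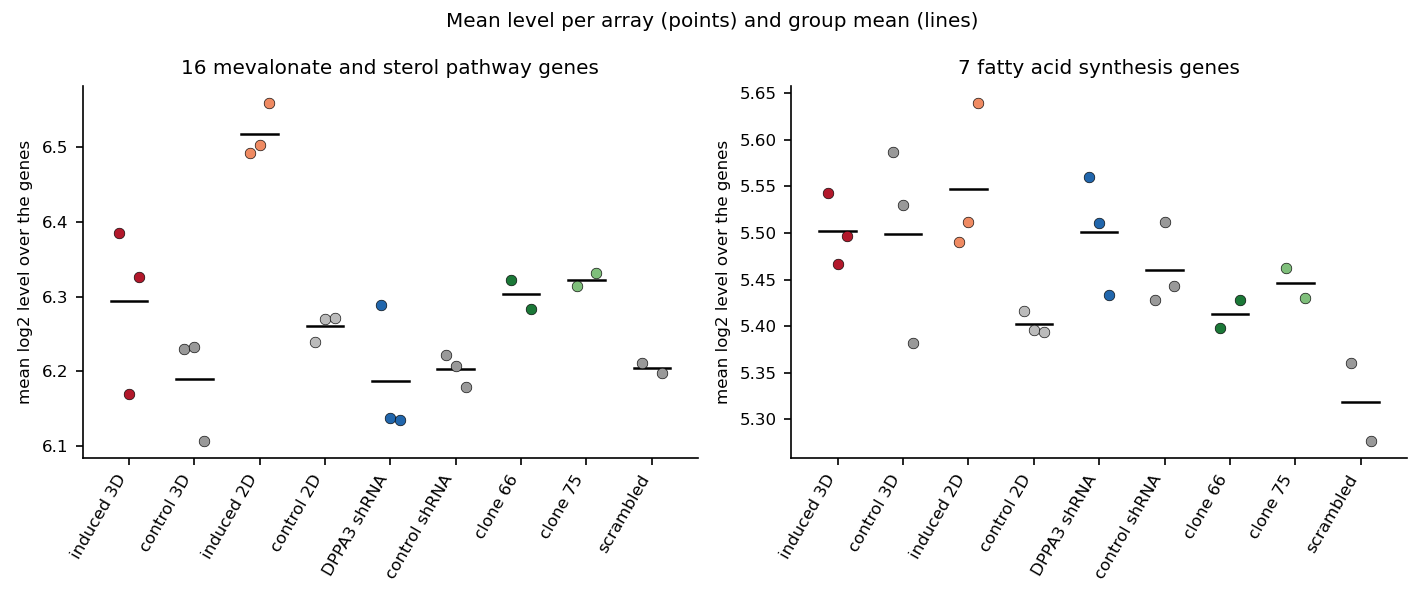
Mean log2 level per array (points) and per group (lines) over the 16 mevalonate and sterol members and over the 7 fatty acid synthesis members. The 3 induced 2D arrays lie between 6.49 and 6.56 in the first panel, above all other arrays, and the groups overlap more in the second.

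Because these 5 genes were higher together, their promoters are shown, as the 200 bases before the start site of the RefSeq promoter window used for each gene (GRCh38.p14), read in the direction of transcription. For CYP51A1 this start lies inside the outermost bounds that RefSeq gives the gene. Capitals mark a CCAAT box, bound by NF-Y (CCAAT or, on the other strand, ATTGG), or the sterol regulatory element searched for (TCACNCCAC, either strand). The windows are chr5:43313413-43313612 on the minus strand for HMGCS1, chr7:92134478-92134677 on the minus strand for CYP51A1, chr5:111512536-111512735 on the minus strand for STARD4, chr22:41832905-41833104 on the plus strand for SREBF2 and chr21:46228775-46228974 on the minus strand for LSS.
HMGCS1: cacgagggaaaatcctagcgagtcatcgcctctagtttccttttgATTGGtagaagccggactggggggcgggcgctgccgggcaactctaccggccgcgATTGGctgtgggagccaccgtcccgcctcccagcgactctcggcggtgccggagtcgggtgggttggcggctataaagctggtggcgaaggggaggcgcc
CYP51A1: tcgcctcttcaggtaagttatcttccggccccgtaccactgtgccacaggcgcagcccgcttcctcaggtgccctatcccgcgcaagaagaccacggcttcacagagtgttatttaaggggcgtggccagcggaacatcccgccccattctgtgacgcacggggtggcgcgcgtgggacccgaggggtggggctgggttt
STARD4: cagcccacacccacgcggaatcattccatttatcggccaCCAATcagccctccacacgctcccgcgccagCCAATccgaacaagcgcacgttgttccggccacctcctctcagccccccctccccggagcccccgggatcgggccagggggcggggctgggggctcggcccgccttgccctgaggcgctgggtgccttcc
SREBF2: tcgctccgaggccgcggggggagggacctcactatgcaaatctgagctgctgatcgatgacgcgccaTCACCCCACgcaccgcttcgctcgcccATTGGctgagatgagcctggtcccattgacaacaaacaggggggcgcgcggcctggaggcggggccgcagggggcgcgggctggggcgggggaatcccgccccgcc
LSS: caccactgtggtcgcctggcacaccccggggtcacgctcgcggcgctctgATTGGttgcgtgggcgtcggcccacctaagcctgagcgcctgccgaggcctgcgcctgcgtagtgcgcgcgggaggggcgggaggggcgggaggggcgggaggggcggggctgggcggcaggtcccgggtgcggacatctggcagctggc

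Promoter windows from 250 bases before to 50 bases after the start were matched for 28 of the 32 members. FDFT1, SQLE, FASN and ACAT2 are named only. The sterol element TCACNCCAC was found in 1 of 28 members, SREBF2, where it ends 125 bases before the start site, and in 1.1% of all 27305 promoters. A shorter form that contains it, CACNCCAC, was in 5 members (ABCA1, INSIG1, SC5D, SCD and SREBF2), or 17.9%, against 5.7% of all promoters. The CCAAT box was in 17 members, or 60.7%, against 35.7% of all promoters, and the GC box GGGCGG, bound by Sp1, was in 26, or 92.9%, against 44.6%. Among the 13864 promoters of tested genes, 36.4% held the CCAAT box and 60.5% the GC box. The E-box CACGTG was in 5 members (17.9%, against 7.4%). All forms were sought on both strands. The LXR element was sought only as an exact direct repeat of AGGTCA with 4 bases between. It was in 0 members and in only 5 of all 27305 promoters. Its absence from the members therefore says little, and looser forms of it were not sought. These are matches of letters in a window, given without a test.

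After 5 days in 3D, only HMGCS1 passed among the members: 1 was higher in the induced line and 0 were lower, where 2.93% of all genes were called higher and 2.77% lower. HMGCS1 was at 8.79, 8.54 and 8.70 in induced 3D cells, against 7.97, 7.74 and 7.82 in control 3D cells. The groups did not overlap, and the difference of 0.83 ± 0.10 (SE), or 1.78-fold, had an adjusted p of 6.34e-06 by limma. It passed in all 13 alternative fits for this comparison. The fold change was above 0 for 18 of 30 members, with a median of 0.07, beside -0.01 over all genes. The induced arrays lay above every control array for 3 members (HMGCS1, PMVK and SC5D) and below for IDI1, where 8.71% and 9.57% of all genes were so separated. Of the 12 epithelial markers, 11 were above 0 and 1 below in this comparison, with a median of 0.19, and 0 were called. The part of these markers in the members' values was not tested.

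Some sterol genes in 3D came near the threshold. SC5D, a late sterol desaturase, was at 5.36, 5.04 and 5.30 in induced 3D cells, against 4.90, 4.80 and 4.71 in control 3D cells. These do not overlap, and the difference of 0.43 had an adjusted p of 0.0669 by limma. SREBF2 was at 7.18, 6.63 and 6.83 in induced cells, against 6.66, 6.52 and 6.35 in control cells, with an overlap and an adjusted p of 0.0916. SC5D and SREBF2 passed without replicate 2 of the induced line, and SC5D also among genes above the median level alone. MSMO1, a methylsterol oxidase at 0.34 (adjusted p = 0.128), passed without replicate 3 of the control line. Each of these genes passed in only 1 of the 6 fits that left out an array. In the other such fits the adjusted p by limma ran up to 0.257 for SC5D, 0.499 for SREBF2 and 0.511 for MSMO1. The arrays left out for these calls had the lowest averages over the 16 mevalonate and sterol genes in their groups. They were at 6.17, against 6.39 and 6.33 for the others of the induced line, and 6.11, against 6.23 and 6.23 for the others of the control line. MSMO1 itself ran against the average of the other mevalonate and sterol genes within groups (r = -0.37). The part of these averages in the calls was not tested. The 4 other members that had passed in 2D were at 0.09 for CYP51A1, 0.14 for STARD4, 0.05 for LSS and 0.37 for SREBF2 in 3D.

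The difference between the induction effects, 3D minus 2D, passed in limma for 0 of 30 members, where 0.103% of all genes were called higher and 0.138% lower, and 8 members (1566 of all genes) had an unadjusted p under 0.05. CYP51A1 had the lowest value, -0.54 (95% interval -0.90 to -0.18, adjusted p = 0.28), followed by LSS and MVD at -0.47 and STARD4 at -0.46. HMGCS1 was at -0.14 (95% interval -0.44 to 0.15, adjusted p = 0.843). For 22 members the value was below 0, with a median of -0.09, beside -0.01 over all genes. The 5 calls in 2D and the 1 call in 3D are therefore not shown to differ between the settings.

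**Figure D3:**
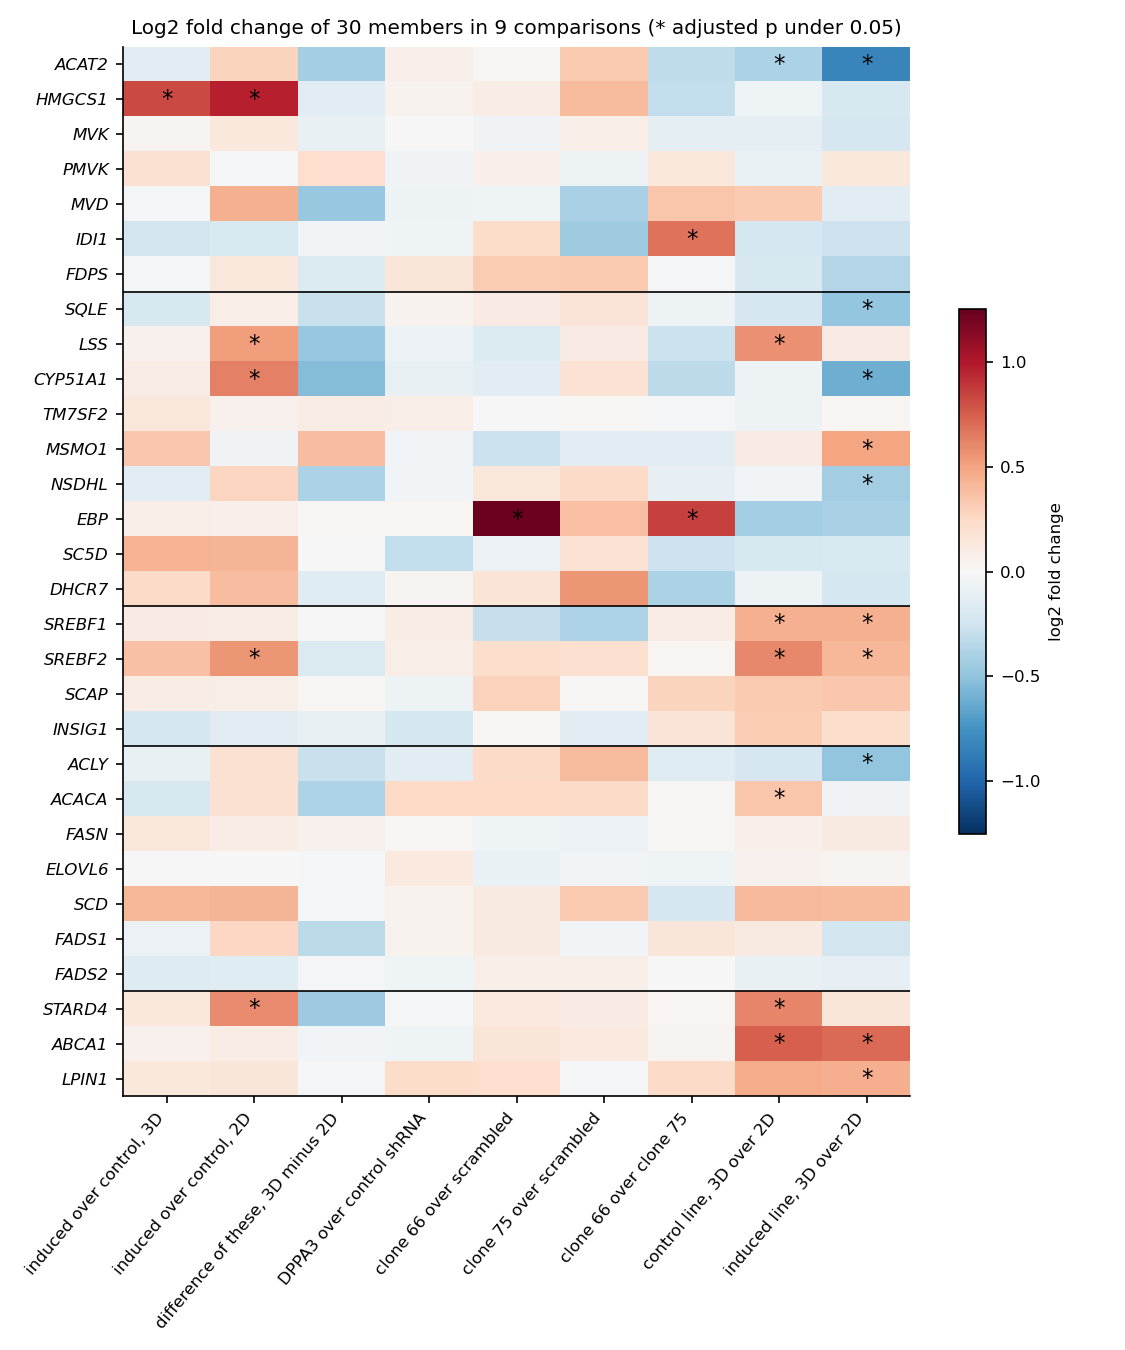
Log2 fold changes (colour) of the 30 measured members (rows) in 9 comparisons (columns), with a star at an adjusted p under 0.05. Rows run by role from the mevalonate pathway at the top to lipid transport or glyceride synthesis at the bottom. HMGCS1 is starred for induction in 3D and 2D, EBP and IDI1 between the clones, and no member is starred for the shRNA.

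Each line was also compared between its settings. In 3D with 5 days of doxycycline, relative to 2D with 4 hours, the control line had 6 members higher and 1 lower, where 4.92% of all genes were called higher and 2.88% lower. With each array centred on its median, 678 genes were higher and 831 lower, in place of 859 and 502, and 5 members were higher and 1 lower. The 3D arrays lay above every 2D array for 9 members and below for 4, where 11.4% and 11.7% of all genes were so separated. ABCA1, which exports cholesterol, was at 5.05, 4.90 and 4.70 in control 3D cells, against 4.14, 4.22 and 4.05 in control 2D cells. STARD4 was at 6.44, 6.20 and 6.40 in 3D, against 5.73, 5.70 and 5.78 in 2D. The groups were separate for both, by 0.75 ± 0.13 for ABCA1 and 0.61 ± 0.12 for STARD4 (SE; limma, adjusted p = 0.000421 and 0.00161).

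SREBF2 was at 6.66, 6.52 and 6.35 in control 3D cells, against 5.76, 5.97 and 6.01 in control 2D cells, a difference of 0.60 (adjusted p = 0.00344). LSS was at 5.73, 5.66 and 5.59 in 3D, against 5.07, 4.99 and 5.20 in 2D, a difference of 0.57 (adjusted p = 0.0136). The arrays were separate for both, and LSS missed the threshold without replicate 1 of the 3D group (adjusted p = 0.0535). The 3 remaining calls depended more on the fit: SREBF1 at 0.45 passed in 6 of 13 alternatives, ACACA, acetyl-CoA carboxylase, at 0.35 in 5, and ACAT2, acetoacetyl-CoA thiolase, at -0.40 in 8. All 4 regulators were above 0, INSIG1 at 0.31 and SCAP at 0.32 without passing. These control 2D arrays are also the ones against which the induced 2D cells were compared, so the 2 comparisons share them. Culture form and time with doxycycline changed together and cannot be told apart.

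The induced line, set in 3D against 2D, had 5 members higher and 5 lower, where 7.55% of all genes were called higher and 7.35% lower. ABCA1, SREBF1, SREBF2, MSMO1 and LPIN1 (a phosphatidate phosphatase) were the higher ones, and ACAT2, SQLE, CYP51A1, NSDHL and ACLY were the lower ones. The 3D arrays lay above every 2D array for 5 members and below for 10, where 13.0% and 15.4% of all genes were so separated. Centred on the median, 1128 genes were higher and 1549 lower, in place of 1317 and 1282, and 4 members were higher and 6 lower. ACAT2 was at 7.82, 7.96 and 7.88 in induced 3D cells, against 8.60, 8.64 and 8.89 in induced 2D cells, and fell by 0.83 (adjusted p = 8.82e-06 by limma). SQLE was at 6.88, 6.75 and 6.72 in 3D, against 7.25, 7.24 and 7.32 in 2D, and fell by 0.49 (adjusted p = 0.00077). No array of the 3D group reached the 2D group for either gene.

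CYP51A1 was at 6.04, 6.05 and 5.97 in induced 3D cells, against 6.89, 6.60 and 6.41 in induced 2D cells. ACLY, which makes cytosolic acetyl-CoA from citrate, was at 7.09, 7.08 and 6.94 in 3D, against 7.48, 7.53 and 7.57 in 2D. NSDHL, a sterol dehydrogenase, was at 6.89, 6.77 and 6.99 in 3D, against 7.23, 7.33 and 7.39 in 2D. The groups were separate for all 3 genes, which fell by 0.61, 0.49 and 0.43 (adjusted p = 0.00107, 0.00489 and 0.00641), and these calls held in all 13 alternative fits.

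ABCA1 was at 4.88, 5.00 and 4.93 in induced 3D cells, against 3.93, 4.33 and 4.42 in induced 2D cells, a rise of 0.71 (adjusted p = 0.000256). Together with the control line, all 6 arrays in 2D lay below all 18 in 3D for this gene. MSMO1 was at 4.77, 4.85 and 4.51 in 3D, against 4.38, 4.02 and 4.26 in 2D (0.49, adjusted p = 0.00772), and did not pass without replicate 2 of the 2D group (adjusted p = 0.0608). SREBF1 was at 5.55, 4.99 and 5.24 in 3D, against 5.01, 4.73 and 4.70 in 2D, and these overlap. Its call (0.45, adjusted p = 0.0139) and that of SREBF2 (0.42, adjusted p = 0.0237) were lost without replicate 1 of the 3D group, at adjusted p = 0.127 and 0.201. Both were also lost without replicate 2 or 3 of the 2D group, and SREBF2 without replicate 1 of it (adjusted p = 0.0545 to 0.0697). LPIN1 (0.45, adjusted p = 0.0394) passed in 6 of 13 alternatives, and not without replicates 1 or 3 of either group. Of the 12 epithelial markers, 10 were above 0 between induced 3D and induced 2D cells, with a median of 0.22, and 4 were called higher, among them KRT20 at 0.62 and CDH17 at 0.58. Their part was not tested. The comparison shares its 3D and 2D arrays with those of the induced line against the control line.

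The ABCA1 promoter, chr9:104928156-104928355 on the minus strand (RefSeq, GRCh38.p14), is shown because this gene separated the culture settings in both lines. It held the short sterol form, an E-box and GC boxes in its full window and neither of the motifs capitalised above.
ABCA1: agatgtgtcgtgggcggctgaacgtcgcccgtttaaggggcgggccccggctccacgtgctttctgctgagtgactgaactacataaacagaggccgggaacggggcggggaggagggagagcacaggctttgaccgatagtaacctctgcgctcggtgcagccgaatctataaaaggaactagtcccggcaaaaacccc

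With DPPA3 shRNA, 0 of 30 members passed in limma, where 0.0344% of all genes were called higher and 0.0516% lower, and 2 members (917 of all genes) had an unadjusted p under 0.05. HMGCS1 was at 8.04, 8.02 and 7.82 with DPPA3 shRNA, against 7.78, 8.08 and 7.89 with control shRNA. The arrays overlap, and the fold change of 0.04 had a 95% interval of -0.17 to 0.25. The largest member values were 0.25 for ACACA and -0.31 for SC5D, both at unadjusted p under 0.05 and adjusted p of 0.814 and 0.864. The members' median was 0.01, beside -0.001 over all genes. ACACA was the single member with all shRNA arrays above the controls and SC5D the single one with all below, where 5.16% and 5.62% of all genes were so separated.

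In clone 66, EBP was the only member to pass: 1 was higher and 0 were lower than with the scrambled guide, where 0.871% of all genes were called higher and 0.562% lower. EBP, a sterol isomerase also known as the emopamil-binding protein, was at 9.75 and 9.72 in clone 66, against 8.56 and 8.47 with the scrambled guide. These were the highest EBP levels of all 24 arrays, and the difference of 1.22 ± 0.20 (SE), or 2.34-fold, had an adjusted p of 0.000662 by limma. In clone 75, 0 of 30 members passed in limma, where 0.138% of all genes were called higher and 0.481% lower, and 8 members (1417 of all genes) had an unadjusted p under 0.05. EBP in clone 75 was at 8.81 and 8.96, or 0.37 above the scrambled guide (adjusted p = 0.672). Both clones are set against the same 2 control arrays.

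The lowest adjusted p of a member in clone 75 was that of IDI1, the isomerase that makes dimethylallyl diphosphate. It was at 5.05 and 5.06 in clone 75, against 5.43 and 5.56 with the scrambled guide (-0.44, adjusted p = 0.142). HMGCS1 was at 8.49 and 8.52 in clone 75 and 8.19 and 8.21 in clone 66, against 8.15 and 8.07 with the scrambled guide. Neither difference, 0.39 in clone 75 (adjusted p = 0.222) and 0.09 in clone 66 (adjusted p = 0.938), passed. DHCR7, which reduces the last precursor to cholesterol, was at 0.56 in clone 75 and 0.16 in clone 66 without passing. With 2 arrays a side, 16 members in clone 66 and 13 in clone 75 had both arrays above both controls, and 3 and 5 had both below. Over all genes, 20.4% and 19.8% were so separated above, and 22.5% and 20.7% below.

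Set directly against each other, clone 66 had 2 members higher than clone 75 and 0 lower, where 1.98% of all genes were called higher and 0.923% lower. IDI1 was at 5.80 and 5.65 in clone 66, against 5.05 and 5.06 in clone 75. EBP was at 9.75 and 9.72 in clone 66, against 8.81 and 8.96 in clone 75. The differences were 0.68 ± 0.13 for IDI1 and 0.85 ± 0.20 for EBP (SE; limma, adjusted p = 0.00148 and 0.0133). Both arrays of clone 66 lay above both of clone 75 for 5 members and below for 9, where 19.9% and 21.9% of all genes were so separated. EBP did not pass in any of the 4 fits without an array of the clones (adjusted p up to 0.161), and IDI1 did not pass without replicate 1 of clone 66 (adjusted p = 0.0517). In clone 66 the leukocyte marker CD68 was 0.71 and the epithelial marker KRT20 was 0.61 above the scrambled guide, both called. CD68 was the single leukocyte marker called: of the 4 measured, 2 were above 0 and 2 below, with a median of 0.02. Their part in the EBP value was not tested.

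The EBP promoter, chrX:48521608-48521807 on the plus strand (RefSeq, GRCh38.p14), is shown for the member that moved most in a clone. It held 3 CCAAT boxes, in capitals.
EBP: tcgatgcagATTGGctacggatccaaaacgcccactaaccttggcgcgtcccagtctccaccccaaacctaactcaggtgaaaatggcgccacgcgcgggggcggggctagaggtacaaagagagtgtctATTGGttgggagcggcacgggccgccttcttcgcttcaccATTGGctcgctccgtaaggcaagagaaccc

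Some genes that lie beside EBP, IDI1 and HMGCS1 on their chromosomes were called in the same direction. Of the 20 tested genes nearest to EBP on chromosome X, 8 were also called higher in clone 66, with a median of 0.41. TBC1D25 next to it was at 1.01, RBM3 at 0.83, FTSJ1 at 0.77 and HDAC6 at 1.09. Among the 20 nearest genes above the median level, 14 were called higher and 20 were above 0, with a median of 0.81. Of the 17 tested genes nearest to IDI1, near the end of chromosome 10, 7 were higher in clone 66 than in clone 75, and their median of 0.66 was close to the 0.68 of IDI1 itself. GTPBP4 was at 0.83, LARP4B at 0.85 and PFKP at 0.71. In clone 75 against the scrambled guide, the IDI1 neighbours had a median of -0.44, and IDI1 was at -0.44. Among genes above the median level, the medians were 0.71 between the clones, with 8 of 14 called higher, and -0.61 in clone 75, with 6 of 14 called lower.

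HMGCS1 on chromosome 5 stood above the median of its neighbours. In 2D the 20 nearest tested genes had a median of 0.14, beside 0.97 for HMGCS1, and 4 were called higher. In 3D their median was 0.29, beside 0.83 for HMGCS1, and 7 were called higher, among them GHR at 1.35, TMEM267 at 0.91, MRPS30 at 0.75 and NNT at 0.73. Limited to genes above the median level, the neighbour medians were 0.44 in 2D and 0.35 in 3D, with 8 and 7 of 20 called higher. The IDI1 neighbours had medians of -0.42 in 3D and -0.18 in 2D in the induced line, beside -0.23 and -0.19 for IDI1. Among genes above the median level those medians were -0.67 and -0.58, with 9 and 8 of 14 called lower. For CYP51A1 in 2D the neighbour median was 0.13, beside 0.63 for the gene. Limited to genes above the median level it was 0.19, with 3 of 20 called higher and 1 lower. For STARD4, SREBF2 and LSS in 2D the median of the nearest tested genes was 0.02, -0.01 and 0.01, with 0 neighbours called. The part of a gene's position in its value was not tested.

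**Figure D4:**
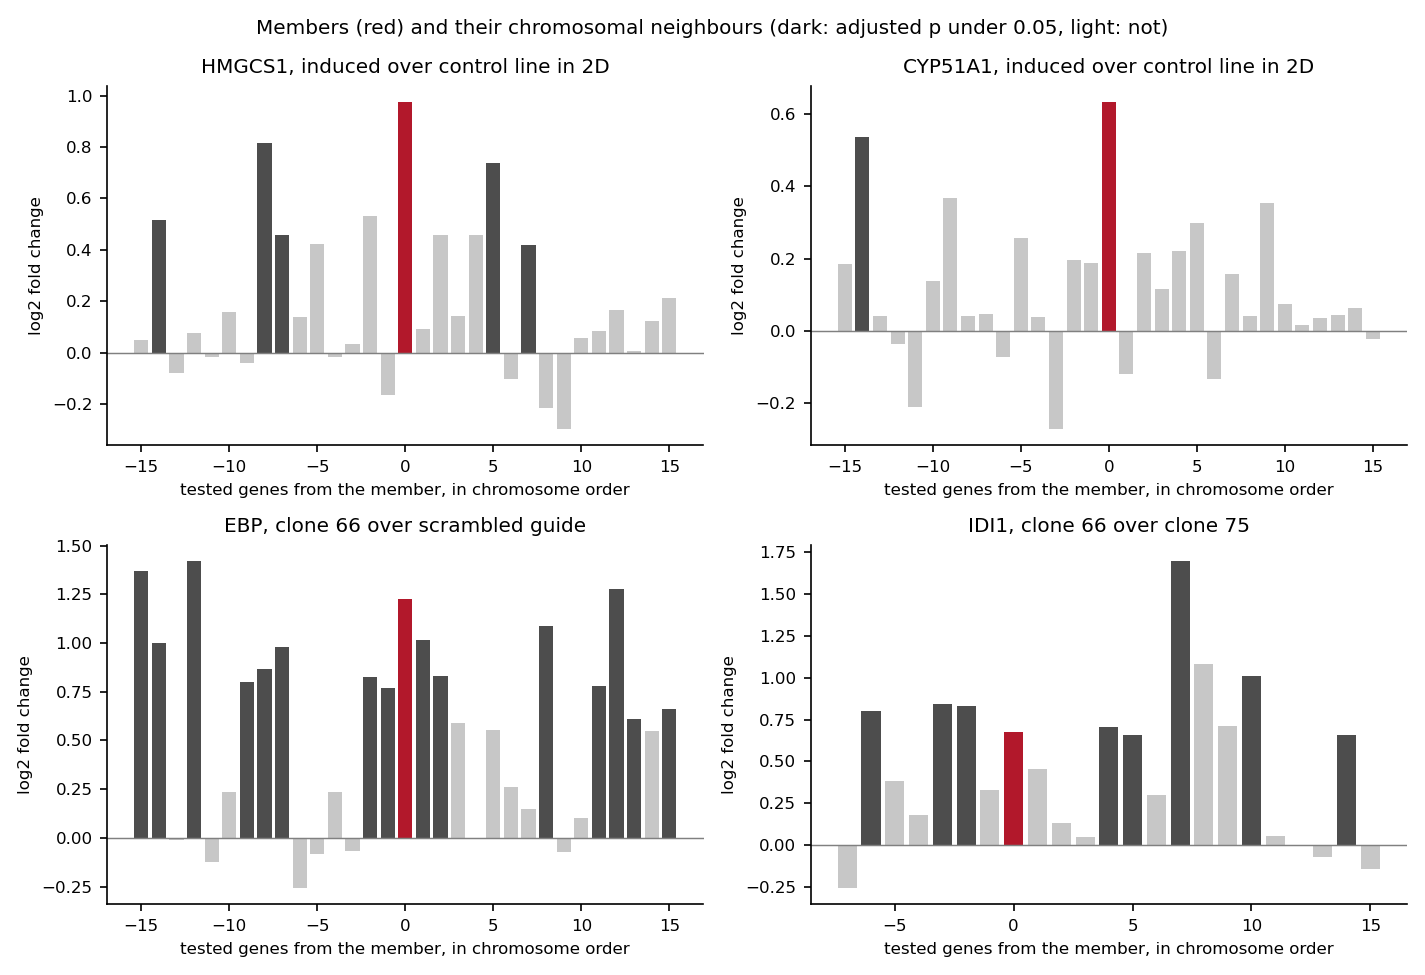
Log2 fold change (vertical axis) of HMGCS1 and CYP51A1 (induced over control line in 2D), EBP (clone 66 over scrambled guide) and IDI1 (clone 66 over clone 75), each in red, and of up to 15 tested genes on each side in chromosome order (dark where the adjusted p is under 0.05). In 2D, CYP51A1 and HMGCS1 stand above the neighbours drawn, of which some are dark around HMGCS1 and ADAM22 is dark near CYP51A1. Many genes around EBP and IDI1 are dark and of similar height.

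The 7 fatty acid synthesis genes passed in few comparisons: ACACA in the control line and ACLY in the induced line, both between 3D and 2D. FASN, fatty acid synthase, was at 6.07, 5.31 and 5.37 in induced 3D cells, against 5.47, 5.24 and 5.60 in control 3D cells, and at 5.40, 5.60 and 5.40 in induced 2D cells, against 5.17, 5.66 and 5.29 in control 2D cells. A single induced 3D array was high, and the groups otherwise overlapped (adjusted p = 0.769 in 3D and 0.878 in 2D). SCD was at 9.20, 8.87 and 9.23 in induced 3D cells, against 8.78, 8.94 and 8.35 in control 3D cells. In 2D it was at 8.45, 8.67 and 9.01 in induced cells, against 8.43, 8.31 and 8.10 in control cells. The 2D groups just separated and the 3D groups overlapped, with differences of 0.41 in 3D and 0.43 in 2D (adjusted p = 0.123 and 0.145). ELOVL6, which elongates palmitate, and the dim desaturases FADS1 and FADS2, whose genes overlap, passed nowhere. Across all comparisons 16 members passed at least once, where 22.3% of all genes did. The 14 that never did were MVK, PMVK, MVD, FDPS, DHCR7, SC5D, TM7SF2, INSIG1, SCAP, FASN, SCD, ELOVL6, FADS1 and FADS2, with values from -0.47 (MVD, in the difference of the induction effects) to 0.56 (DHCR7, in clone 75).

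INSIG1 passed in no comparison. It was at 6.10, 5.76 and 5.65 in induced 3D cells, against 6.06, 6.17 and 5.94 in control 3D cells, and at 5.78, 5.54 and 5.52 in induced 2D cells, against 5.72, 5.71 and 5.81 in control 2D cells. The induced values were on average lower and overlapped with the controls, at -0.22 in 3D and -0.13 in 2D (adjusted p = 0.416 and 0.73). The INSIG1 neighbours had medians of -0.19 in 3D and -0.17 in 2D. SREBF1 was at 5.41, 5.22 and 5.31 with DPPA3 shRNA, against 5.25, 5.23 and 5.17 with control shRNA. In the knockout experiment it was at 5.28 and 4.95 in clone 66 and 5.04 and 4.99 in clone 75, against 5.46 and 5.36 with the scrambled guide. Both clones lay below the shared controls without passing, at -0.29 and -0.39 (adjusted p = 0.583 and 0.432).

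Genes of the same pathways outside the 32 were counted from lists that cover 16 other sterol genes, 11 genes of LXR and efflux, 25 other fatty acid and glyceride genes and 12 genes of fatty acid oxidation. In induced 3D cells, INSIG2, the sister protein of INSIG1, was 0.75 and CYB5R3, a reductase that supplies electrons to lipid desaturases, 0.88 above control 3D cells, 2 of 16 other sterol genes, with a list median of 0.05. The very long chain acyl-CoA dehydrogenase ACADVL was 0.65 higher, 1 of 12 oxidation genes. Of the 25 other fatty acid and glyceride genes, HACD2, a chain-elongation dehydratase, was 0.46 higher and the acyl-CoA ligase ACSL4 was lower at -0.58. Over all genes, 2.93% were called higher and 2.77% lower in this comparison. In 2D, 0 of the 16 other sterol genes passed (3 at an unadjusted p under 0.05), and PPARA, a receptor for fatty acids, was the single oxidation gene called, at -0.65. The PPARA arrays of the 2 lines overlapped. Of the 12 oxidation genes, 10 were above 0 and 2 below in 2D, with a median of 0.12. Over all genes, 1.87% were called higher and 1.26% lower in 2D.

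Between 3D and 2D, ACSS2, which makes acetyl-CoA from acetate, was higher in 3D by 0.73 in the control line and 0.71 in the induced line. MYLIP, an LXR-induced ubiquitin ligase, was higher by 0.53 and 0.70, and NPC2, which carries cholesterol in lysosomes, by 0.51 and 0.33. NR1H3, which encodes an LXR, was higher by 0.44 in the induced line. Of the 11 genes of LXR and efflux, 1 was called higher and 0 lower in the control line. There 6 were above 0 and 5 below, with a median of 0.05. In the induced line 2 were called higher and 0 lower, with 10 above 0, 1 below and a median of 0.18. Of the 16 other sterol genes, 1 was higher and 0 lower in the control line, and 2 were higher and 1 lower in the induced line. Of the 25 other fatty acid and glyceride genes, 4 were higher and 0 lower in the control line, and 2 were higher and 3 lower in the induced line. Over all genes, 4.92% were called higher and 2.88% lower in the control line, and 7.55% and 7.35% in the induced line. In clone 66, ACSL1 was 0.74 above and HACD3 was at -0.70 against the scrambled guide.

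Arrays of a group also differed among themselves, and members moved together only weakly in that spread. After each group mean was removed, the median correlation between pairs of the 15 mevalonate and sterol members above the median level was 0.12 over the 24 arrays, beside 0.03 for pairs of all genes above that level. These correlations share the arrays and their normalisation. Each member was compared with the average of the 16 genes, without its own value where it was among them. SREBF2 followed this average most closely (r = 0.81), then EBP (0.74) and ACACA (0.73). CYP51A1 was at 0.02, ACAT2 at -0.32, FADS2 at -0.35, and ELOVL6 and MSMO1 at -0.37. The non-members most like that average were ATP6AP1 (0.92), RPL8 (0.91), LASP1 (0.91), SEC31A (0.91), LMAN2 (0.91), NARS1 (0.90), GPA33 (0.89), SPINT2 (0.89), LRRC59 (0.88) and COPS7A (0.87).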

How the data were processed

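Total RNA from 24 samples of SW1222 cells was labelled with biotin for Affymetrix arrays, per the labels' protocols. The authors made the deposited log2 levels with Partek 6.6 and RMA, a method that corrects background, normalises by quantiles and summarises probe sets, per the submitters' processing notes. Genome build and scan batches are not given in the sources used here. Precision is limited by the 2 or 3 arrays per group.

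Of 20276 probe sets, 18062 carried 1 gene symbol in the platform annotation, 1288 several and 926 none. The brightest probe set per gene gave 17448 genes. All 24 arrays entered a single limma model (version 3.58.1, R 4.3.3) of the group means, with 15 residual and 9.81 prior degrees of freedom. Tests were 2-sided. In each of 9 comparisons p was adjusted by Benjamini-Hochberg across all genes, and a gene was called under 0.05. Intervals are 95% intervals of the fit. The method was tested on simulated data. Alternatives were the arrays compared only, the mean of probe sets, median centring, a new quantile normalisation, genes above the median level, eBayes with trend and robust, a replicate block, and each array left out.

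Values by array were given for most members that passed (among the 8 with the smallest adjusted p where more did). They were also given, in some of the groups, for HMGCS1, SQLE, INSIG1, SREBF1, SREBF2, FASN, SCD and ABCA1, and for SC5D in 3D. From the other pathway lists, up to 3 genes that passed were named. Neighbours were the 10 nearest tested genes on each side in RefSeq order (fewer at a chromosome's end). The restriction of neighbours to genes above the median level was added after seeing the data, and the neighbours named were chosen after their values were seen. The 10 genes most like the average were sought among non-members above the median level. Members and lists were chosen with earlier results of these data known.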

Additional observations from a re-analysis of the deposited data

Results flagged for a closer look

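The clones differed in EBP and IDI1, by the test of clone 66 against clone 75. EBP was 0.85 higher in clone 66 than in clone 75, with both arrays of clone 66 above both of clone 75. IDI1 was 0.68 higher in clone 66 than in clone 75, again with no overlap. Both differences were accompanied by neighbours on the same chromosome, with medians of 0.38 for EBP and 0.66 for IDI1 over the nearest tested genes, and the part of chromosomal position was not tested.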

How the results depend on the processing

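The direction of no called member turned under any alternative. Among the alternatives, the mean of probe sets could not change a member's fold change, because each member has 1 probe set. It adds to the values counted below as unchanged. Over 26 called values, 281 of 332 alternative values stayed past the threshold and 51 did not, and of 3151 alternative values for the 244 member values that had not passed, 22 did, spread over 11 of them (4 each for FDPS and SCAP in the induced line, 3D over 2D). The count of members called was 2 in place of 1 for induction in 3D when only genes above the median level were tested, and 4 in place of 7 for the control line, 3D over 2D, when only its arrays were fitted, which leaves fewer arrays to estimate the spread. Over all genes, that setting called 436 higher and 126 lower for the control line in place of 859 and 502, 253 and 215 for induction in 3D in place of 511 and 484, 189 and 125 for induction in 2D in place of 327 and 219, and 4 and 3 for the difference of induction effects in place of 18 and 24. Where a clone or its control is left with a lone array, that array is assumed to vary like the other groups. With each array left out in turn, the count ran from 1 to 3 for induction in 3D (3 without replicate 2 of the induced line), from 3 to 5 for induction in 2D (3 without replicate 1 of the control line), from 0 to 1 for clone 66 over clone 75 (0 without replicate 1 of clone 66), from 4 to 7 for the control line, 3D over 2D (4 without replicate 1 of its 3D group), and from 7 to 12 for the induced line, 3D over 2D. It stayed at 0 for the shRNA, clone 75 and the difference of induction effects, and at 1 for clone 66. The deviations of same-numbered arrays correlated at -0.30 to 0.19 in the induction experiment and -0.06 to 0.18 in the shRNA experiment. Those of differently numbered arrays were at -0.28 to 0.39 and -0.17 to 0.08. In the knockout experiment same-numbered arrays were at 0.02 to 0.11. Differently numbered ones there are equal and opposite, because the deviations of 2 arrays mirror each other. Whether same-numbered arrays were handled together cannot be told from these values. With the replicate number as a block, the counts were 1 and 5 for induction in 3D and 2D, 0 for the shRNA, 1 for clone 66, 0 for clone 75, 2 between clones, 0 for the difference of induction effects, 6 for the control line and 10 for the induced line. The members' median between 3D and 2D changed sign with the setting, in the control line from 0.01 to -0.04 with arrays centred on the median, and in the induced line from -0.07 to 0.03 over genes above the median level, so no direction is given for them as a group there.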
